A study of Mus musculus with 9 samples.

Results

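The STAT and SOCS family genes described here are Stat3, Stat4, Stat5a, Stat5b, Stat6, Socs1, Socs2, Socs3 and Cish, chosen by gene symbol from the deposited table of expression per library. They are 9 of 23849 genes in that table, and all 9 passed the filter on low values that left 10340 genes for testing. RNA-seq was done on naive mouse CD4+ T cells, sorted as CD4+CD62LhighCD44low and then activated through CD3 and CD28 with antibodies for 24 h, in every group. The 3 groups, of 3 libraries each, were control (genotype wt), Fosl2 Tg, and Fosl2 Ko (genotype Fosl2fl/fl CD4-cre+). Fosl2 encodes a transcription factor of the AP-1 family. CD4-cre acts in developing T cells before the CD4 and CD8 lineages separate, so the deletion would be in place before the cells were sorted, and the labels name no promoter for the Fosl2 transgene. They give no age and name no animal for a library, so a p-value here reflects only how the libraries scatter, and that scatter may be technical.

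Cytokine receptors signal through Janus kinases, which phosphorylate STAT proteins. Phosphorylated STATs pair, enter the nucleus and bind DNA at sites with the core TTCNNNGAA, where N is any base. In T cells, STAT5 acts downstream of IL-2 and IL-7, STAT6 downstream of IL-4, STAT4 downstream of IL-12 and STAT3 downstream of IL-6 and IL-21. SOCS proteins and CIS, the product of Cish, are induced by STATs and dampen the same receptors. The mRNA levels below say nothing of STAT phosphorylation.

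The promoters of the SOCS genes that differed between Fosl2 Tg and the Fosl2 Ko-labelled libraries are shown because STATs are known to induce these genes. The sequences are RefSeq's on GRCm38.p6, from 250 bases before to 50 after the start site, on the strand of the gene, with matches to TTCNNNGAA in capitals. Cish lies at chr9:107296409-107296708 (plus strand), Socs3 at chr11:117969317-117969616 (minus strand) and Socs1 at chr16:10785487-10785786 (minus strand).
Cish: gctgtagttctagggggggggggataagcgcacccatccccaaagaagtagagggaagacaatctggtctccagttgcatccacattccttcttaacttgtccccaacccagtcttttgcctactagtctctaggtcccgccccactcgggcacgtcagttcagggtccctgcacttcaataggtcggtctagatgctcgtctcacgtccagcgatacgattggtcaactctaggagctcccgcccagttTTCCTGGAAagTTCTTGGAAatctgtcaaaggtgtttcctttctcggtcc
Socs3: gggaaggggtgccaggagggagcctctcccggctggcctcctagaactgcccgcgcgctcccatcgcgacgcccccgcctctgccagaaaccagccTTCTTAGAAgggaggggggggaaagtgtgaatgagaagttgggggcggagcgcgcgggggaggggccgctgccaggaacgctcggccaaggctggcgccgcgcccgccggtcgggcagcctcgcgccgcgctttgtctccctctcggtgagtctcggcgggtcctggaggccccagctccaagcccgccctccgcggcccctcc
Socs1: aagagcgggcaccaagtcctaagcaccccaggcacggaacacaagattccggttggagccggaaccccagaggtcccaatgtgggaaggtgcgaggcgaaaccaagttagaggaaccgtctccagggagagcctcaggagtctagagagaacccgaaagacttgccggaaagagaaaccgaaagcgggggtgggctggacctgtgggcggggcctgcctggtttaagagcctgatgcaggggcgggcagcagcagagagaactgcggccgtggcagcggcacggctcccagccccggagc
The Cish window held 2 matches, TTCCTGGAA from base 1 of the RefSeq transcript and TTCTTGGAA from base 12, and the RefSeq start lies 30 bases before the deposited one. The Socs3 window held 1 match, TTCTTAGAA, beginning at position -154 from the start site, and the Socs1 window held none. TTCNNNGAA was thus found in 2 of the 8 members with a RefSeq window, while 8.3% of 32851 windows held it at least once and 0.457% held it 2 or more times. Socs2 had no window in the table. The STAT6-type core with 1 more N in its centre (6.95% of windows), the AP-1 motif TGANTCA (7.81%) and the CRE-type motif TGACGTCA (1.79%) were in 0 of the 8 windows, searched on both strands. A match describes the letters of the window and does not show binding.

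Stat5b, Stat5a and Stat3 are neighbours on mouse chromosome 11 in a stretch of 158.8 kb (mm10). Stat5b, at chr11:100780731-100850585 on the minus strand, lies 8.77 kb from Stat5a, at chr11:100859351-100885169 on the plus strand, which in turn lies 1.64 kb from Stat3, at chr11:100886810-100939511 on the minus strand. Socs3 is on the same chromosome, far from that cluster. Stat4 is on chromosome 1, Stat6 and Socs2 are on chromosome 10, Socs1 is on 16 and Cish is on 9. Stat5a and Stat5b are near-identical copies, and reads that match both may have been divided between them, so their single values are uncertain. The deposited positions leave a gap between Stat5a and Stat3, but in the GENCODE annotation Stat3 reaches further and overlaps the end of Stat5a. Stat6 overlaps Nab2, Stat4 overlaps Gm28177 on its own strand and the pseudogene Gm3940 on the other, and Cish overlaps the antisense entries Gm17040 and Gm17041. The libraries were directional per the labels, but whether counting used the strand is not given in the sources used here, so reads of such overlapping pairs may not be told apart, and those of Stat4 and Gm28177 may not be by strand in any case.

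Fosl2 went against the label of the Fosl2 Ko group. Its expression, in FPKM (fragments divided by transcript length in kb and by the M fragments of the library), was 7.77, 7.44 and 6.15 in control, 30.9, 19.2 and 24.5 in Fosl2 Tg, and 19.2, 17.8 and 17.1 in the Fosl2 Ko-labelled libraries. All 3 of the latter lay above every control library, by 1.23 ± 0.15 on the log2(FPKM + 1) scale (SE, limma adjusted p = 0.00404), and the rise in Fosl2 Tg was 1.65 ± 0.15 (adjusted p = 7.49e-04). The deposited value per gene does not show which exons the reads came from, so it does not test the deletion itself. Each direction given below for this group is that of the Fosl2 Ko-labelled libraries. Estimated depth was 31.6 to 56.5 M fragments per library (M as in FPKM), and small RNA genes took 21.1% to 38.0% of the summed FPKM. Summed markers of T cells were 838 to 1175 FPKM, those of CD4 T cells 241 to 277, those of B cells at most 1.87, of myeloid cells at most 1.11, of NK cells at most 0.0361 and of red blood cells at most 0.188 (2 of the 4 listed markers of each of the last pair were in the table). The NK markers present were Ncr1 and Klrb1c. The listed gamma delta T cell markers, Trdc and Tcrg-C1, were absent from it, so gamma delta T cells were not assessed. Of the 2 CD8 T cell markers, Cd8a was below 1 FPKM in every library, and their sum was 10.7 to 12.8 in control and Fosl2 Tg and 6.12 to 7.49 in the Fosl2 Ko-labelled libraries. The 5 markers of stroma and epithelium summed to 15 to 21.8 in control, to 24.3 to 38.1 with the Fosl2 transgene and to 13 to 13.6 in the Fosl2 Ko-labelled libraries, almost all of it Pecam1 and Epcam, with Krt5 at 0. The T cell marker sum was 925 to 940 in control, 1096 to 1175 with the Fosl2 transgene and 838 to 851 in the Fosl2 Ko-labelled libraries, so these sums moved with the groups, and their part in the results below was not tested. In bulk RNA, fewer cells of a type and less RNA per cell cannot be told apart.

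In control, each STAT gene among the members was expressed above Socs1, Socs2 and Socs3, while Cish lay among these STAT genes. The control levels per length ran from Stat6 (70.0 ± 3.24 FPKM, SD, n = 3) and Stat5a (64.1 ± 2.63) through Cish (40.3 ± 1.5), Stat3 (36.3 ± 1.61), Stat5b (33.6 ± 3.67), Stat4 (20.9 ± 1.41) and Socs1 (15.3 ± 1.71) to Socs2 (4.97 ± 0.823) and Socs3 (4.77 ± 1.46). The neighbours in this order whose control libraries overlapped were Stat3 with Stat5b, and Socs2 with Socs3. In Fosl2 Tg the libraries of Cish and Stat5a overlapped in level, as did those of Stat3 and Stat5b, and of Socs1 and Stat4. In the Fosl2 Ko-labelled libraries, Stat5a stood at the top without overlap with Stat6, Cish overlapped Stat4, and Socs3 was lowest. The approximate number of fragments behind a value was 156 to 651 for Socs2 and 249 to 917 for Socs3, against 1943 to 3692 for Stat4, so Socs2 and Socs3 were the members with the least depth among those with an estimate.

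**Figure D1:**
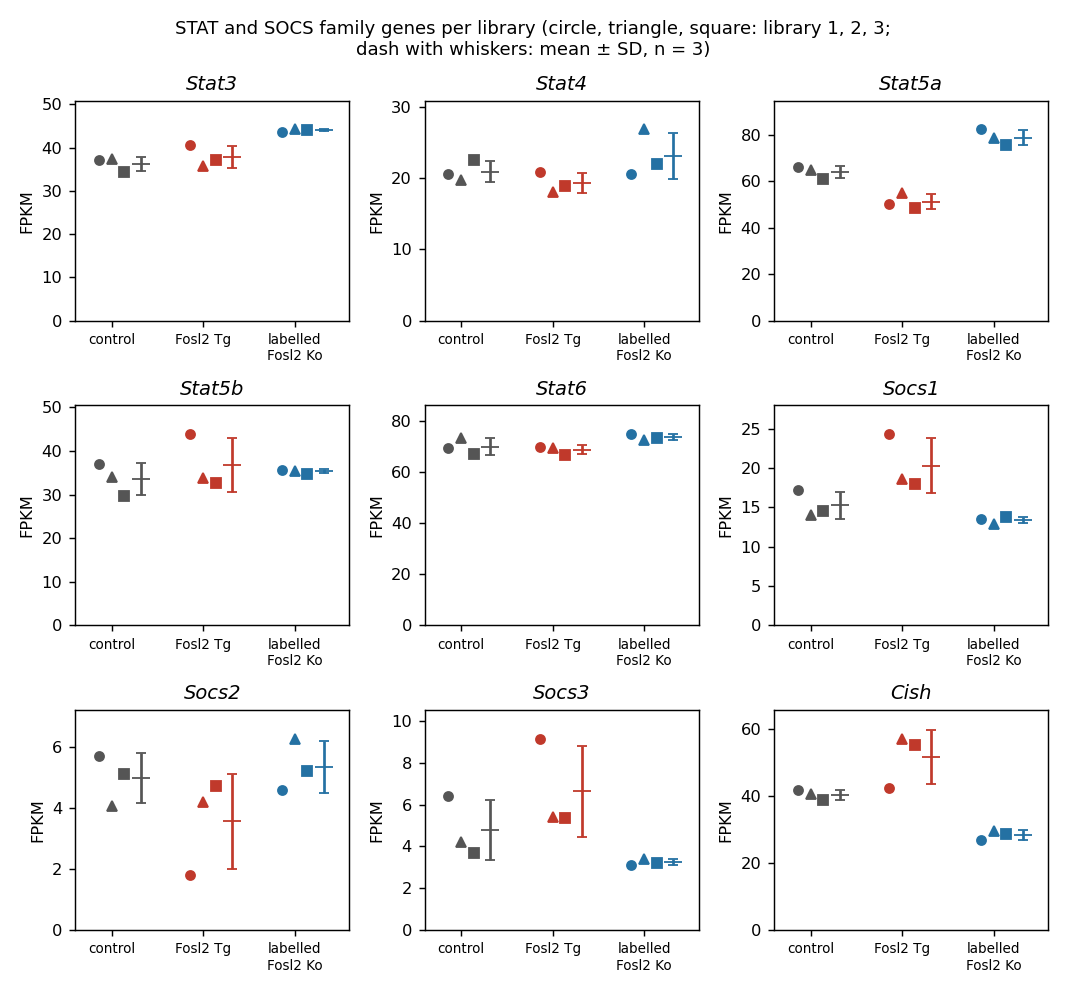
Expression (FPKM, y axis from 0, its own scale in each panel) of the 9 STAT and SOCS family genes by group (x axis), with circle, triangle and square for libraries 1, 2 and 3 and a dash with whiskers for the mean ± SD (n = 3). Stat5a runs from 48.7 to 54.9 in Fosl2 Tg, 61.1 to 66.1 in control and 75.7 to 82.4 in the Fosl2 Ko-labelled libraries, while Cish runs the other way, from 26.7 to 29.6 in the Fosl2 Ko-labelled libraries to 42.3 to 57.2 in Fosl2 Tg.

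Stat5a, one of the paired STAT5 genes that transmit IL-2 and IL-7 signals, was lower than control in Fosl2 Tg and higher in the Fosl2 Ko-labelled libraries. Its FPKM was 66.1, 65.0 and 61.1 in control, 50.1, 54.9 and 48.7 in Fosl2 Tg, and 82.4, 78.7 and 75.7 in the Fosl2 Ko-labelled libraries. The 3 groups did not overlap, with Fosl2 Tg lowest and the Fosl2 Ko-labelled libraries highest. On the log2(FPKM + 1) scale, Stat5a fell by 0.32 ± 0.06 in Fosl2 Tg against control (95% interval -0.46 to -0.18, limma adjusted p = 0.00972), and the adjusted p stayed between 0.00946 and 0.0439 when any 1 library was left out. In the Fosl2 Ko-labelled libraries it rose by 0.30 ± 0.06 (0.16 to 0.43, adjusted p = 0.0315). Between Fosl2 Tg and the Fosl2 Ko-labelled libraries the difference was -0.62 ± 0.06 (-0.75 to -0.48, adjusted p = 2.21e-04). The rise in the Fosl2 Ko-labelled libraries no longer passed when any 1 control or any 1 of those libraries was left out (adjusted p up to 0.129). The authors' deposited table gives a q-value of 0.0397 for Stat5a in Fosl2 Tg over control (log2 fold change -0.29) and 0.0263 in Fosl2 Ko over control (0.30).

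Stat5b, the neighbouring copy, did not pass the test in any comparison. Its FPKM was 36.9, 34.1 and 29.7 in control, 43.9, 33.8 and 32.6 in Fosl2 Tg, and 35.7, 35.4 and 34.8 in the Fosl2 Ko-labelled libraries. Library 1 of Fosl2 Tg was the highest of the 9, and the groups overlapped. The difference from control was 0.12 in Fosl2 Tg (95% interval -0.14 to 0.39, limma adjusted p = 0.434) and 0.07 in the Fosl2 Ko-labelled libraries (-0.19 to 0.34, adjusted p = 0.793). Without library 1 of Fosl2 Tg the value for that group was -0.01. The intervals reach differences as large as those of Stat5a in the same direction for the Fosl2 Ko-labelled libraries, and the difference between the Stat5a and Stat5b responses was not tested.

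Stat3, the STAT of IL-6 and IL-21 signalling, was higher in the Fosl2 Ko-labelled libraries than in both other groups. Its FPKM was 37.1, 37.3 and 34.4 in control, 40.6, 35.8 and 37.2 in Fosl2 Tg, and 43.7, 44.2 and 44.1 in the Fosl2 Ko-labelled libraries. The last group lay above all 6 other libraries, whereas control and Fosl2 Tg overlapped. The rise over control was 0.27 ± 0.06 on the log2 scale (0.15 to 0.40, limma adjusted p = 0.0319), and Fosl2 Tg was lower than the Fosl2 Ko-labelled libraries by -0.21 ± 0.06 (-0.34 to -0.09, adjusted p = 0.0191). Fosl2 Tg differed from control by 0.06 (-0.07 to 0.19, adjusted p = 0.422). The rise over control did not pass without any 1 of the 3 control libraries, any 1 of the 3 libraries labelled Fosl2 Ko or Fosl2 Tg library 3 (adjusted p up to 0.124), nor with small RNA genes left out and FPKM rescaled (0.31, adjusted p = 0.064). The difference between Fosl2 Tg and the Fosl2 Ko-labelled libraries did not pass with that rescaling (-0.15, adjusted p = 0.152), with quantile normalization (-0.18, adjusted p = 0.0502), or without Fosl2 Tg library 2 or any 1 Fosl2 Ko-labelled library (adjusted p up to 0.0647). In the authors' deposited table, Stat3 has a q-value of 0.0451 in Fosl2 Ko over control (log2 fold change 0.28) and of 0.646 in Fosl2 Tg over control. In the same deposited table of the authors, Fosl2 Ko over Fosl2 Tg is not significant for Stat3 (log2 fold change 0.19, q-value 0.259).

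Stat4, the STAT of IL-12 signalling, did not pass in any of the 3 comparisons. Its FPKM was 20.5, 19.7 and 22.5 in control, 20.9, 18.1 and 18.9 in Fosl2 Tg, and 20.6, 26.8 and 21.9 in the Fosl2 Ko-labelled libraries. The groups overlapped, and library 2 of the last group stood highest. The difference from control was -0.11 in Fosl2 Tg (-0.34 to 0.12, limma adjusted p = 0.41) and 0.13 in the Fosl2 Ko-labelled libraries (-0.09 to 0.36, adjusted p = 0.519). Between these groups it was -0.24 (-0.47 to -0.02, adjusted p = 0.0816). Without Fosl2 Ko-labelled library 2 the last pair of values was 0.03 and -0.14, and without library 1 of that group 0.21 and -0.32.

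Stat6, the STAT of IL-4 signalling, did not pass in any comparison. Its FPKM was 69.6, 73.4 and 67.0 in control, 69.8, 69.6 and 66.8 in Fosl2 Tg, and 74.9, 72.7 and 73.3 in the Fosl2 Ko-labelled libraries. Control overlapped both other groups, while each Fosl2 Ko-labelled library lay above each Fosl2 Tg library. The 95% interval was -0.13 to 0.08 for Fosl2 Tg against control (difference -0.03, limma adjusted p = 0.689), -0.03 to 0.18 for the Fosl2 Ko-labelled libraries against control (0.07, adjusted p = 0.457) and -0.20 to 0.01 between the former and the latter (-0.10, adjusted p = 0.123). The sign of the Fosl2 Tg difference turned with scaling, to 0.02 with median-of-ratios scaling, 0.07 with quantile normalization and 0.08 with small RNA genes left out and FPKM rescaled.

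Cish encodes CIS, a feedback inhibitor that STAT5 induces, and it was lower than control in the Fosl2 Ko-labelled libraries. Its FPKM was 41.7, 40.5 and 38.7 in control, 42.3, 57.2 and 55.3 in Fosl2 Tg, and 26.7, 29.6 and 28.5 in the Fosl2 Ko-labelled libraries. The 3 groups did not overlap, although Fosl2 Tg library 1 lay next to the highest control library. Cish fell by 0.50 ± 0.11 on the log2 scale in the Fosl2 Ko-labelled libraries against control (-0.74 to -0.26, limma adjusted p = 0.0369). Fosl2 Tg lay above the Fosl2 Ko-labelled libraries by 0.83 ± 0.11 (0.59 to 1.08, adjusted p = 8.33e-04), a difference that passed with every library left out in turn. Against control, Fosl2 Tg differed by 0.34 ± 0.11 (0.09 to 0.58), and its adjusted p of 0.0509 missed the threshold of 0.05. That value passed without Fosl2 Tg library 1 (0.47, adjusted p = 0.00198), with median-of-ratios scaling (0.38, adjusted p = 0.0295), with quantile normalization (0.40, adjusted p = 0.0261) and with small RNA genes left out and FPKM rescaled (0.44, adjusted p = 0.0115). With any other 1 library left out it did not pass (adjusted p up to 0.142). It also failed with only the compared groups in the fit (adjusted p = 0.123) and without the filter on low values (adjusted p = 0.0795). Of the alternatives that kept all libraries, 6 passed and 5 did not. The fall in the Fosl2 Ko-labelled libraries did not pass with any 1 control library or any 1 of those libraries left out (adjusted p up to 0.144), nor without the filter on low values (adjusted p = 0.0545). The authors' deposited table gives Cish q-values of 0.00361 in Fosl2 Tg over control (log2 fold change 0.39) and 0.000503 in Fosl2 Ko over control (-0.51).

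Socs1, the inhibitor of Janus kinases that restrains interferon and IL-2 receptor signalling, was higher in Fosl2 Tg than in both other groups. Its FPKM was 17.2, 14 and 14.5 in control, 24.3, 18.6 and 17.9 in Fosl2 Tg, and 13.5, 12.9 and 13.7 in the Fosl2 Ko-labelled libraries. The groups did not overlap, and Fosl2 Tg library 1 was the highest of the 9. The rise over control was 0.38 ± 0.11 on the log2 scale (0.12 to 0.64, limma adjusted p = 0.0451), and 0.25 (adjusted p = 0.0652) without Fosl2 Tg library 1. It did not pass either without control library 2 or 3, or without any 1 Fosl2 Ko-labelled library (adjusted p up to 0.14), nor without the filter on low values (adjusted p = 0.0738) or with only the compared groups in the fit (adjusted p = 0.12). Fosl2 Tg lay above the Fosl2 Ko-labelled libraries by 0.56 ± 0.11 (0.29 to 0.82, adjusted p = 0.00801), which passed with every library left out in turn. The libraries labelled Fosl2 Ko differed from control by -0.17 (-0.44 to 0.09, adjusted p = 0.476), or by -0.09 without control library 1. In the authors' deposited table, Socs1 has a q-value of 0.000957 in Fosl2 Tg over control (log2 fold change 0.45) and of 0.358 in Fosl2 Ko over control.

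Socs3 inhibits receptors of the IL-6 family, and it differed between Fosl2 Tg and the Fosl2 Ko-labelled libraries. Its FPKM was 6.43, 4.22 and 3.68 in control, 9.16, 5.39 and 5.37 in Fosl2 Tg, and 3.09, 3.38 and 3.21 in the Fosl2 Ko-labelled libraries. The libraries labelled Fosl2 Ko lay below both other groups, while control and Fosl2 Tg overlapped and library 1 was the highest in each of these. Fosl2 Tg lay above the Fosl2 Ko-labelled libraries by 0.82 ± 0.21 on the log2 scale (0.33 to 1.31, limma adjusted p = 0.0191), and by 0.60 (adjusted p = 0.0333) without Fosl2 Tg library 1. It did not pass when any 1 Fosl2 Ko-labelled library was left out (adjusted p from 0.0539 to 0.0581). Against control the difference was 0.40 in Fosl2 Tg (-0.09 to 0.89, adjusted p = 0.183), or 0.17 without Fosl2 Tg library 1, and -0.42 in the Fosl2 Ko-labelled libraries (-0.91 to 0.07, adjusted p = 0.335), or -0.23 without control library 1. The authors' deposited table gives Socs3 q-values of 0.00138 (log2 fold change 0.51) and 0.000503 (-0.56) for these comparisons.

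Socs2 regulates growth hormone receptor signalling and is also induced by STAT5, and it passed in none of the 3 comparisons. Its FPKM was 5.70, 4.08 and 5.13 in control, 1.79, 4.20 and 4.71 in Fosl2 Tg, and 4.58, 6.28 and 5.20 in the Fosl2 Ko-labelled libraries. Fosl2 Tg library 1 was the lowest of the 9, and the groups overlapped. The difference from control was -0.44 in Fosl2 Tg (-1.03 to 0.14, limma adjusted p = 0.207) and -0.12 without its library 1. It was 0.09 in the Fosl2 Ko-labelled libraries (-0.49 to 0.67, adjusted p = 0.898), from -0.02 to 0.18 with 1 library left out. Between Fosl2 Tg and the Fosl2 Ko-labelled libraries it was -0.53 (-1.12 to 0.05, adjusted p = 0.125), and -0.21 without Fosl2 Tg library 1. The authors' deposited table gives a q-value of 0.0182 in Fosl2 Tg over control, with a log2 fold change of -0.45. It also calls Socs2 significant in Fosl2 Ko over Fosl2 Tg (log2 fold change 0.56, q-value 0.000957), but not in Fosl2 Ko over control (0.11, q-value 0.696). Library 1 of Fosl2 Tg thus held the highest Stat5b, Socs1 and Socs3 values and the lowest Socs2 value of the 9 libraries.

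**Figure D2:**
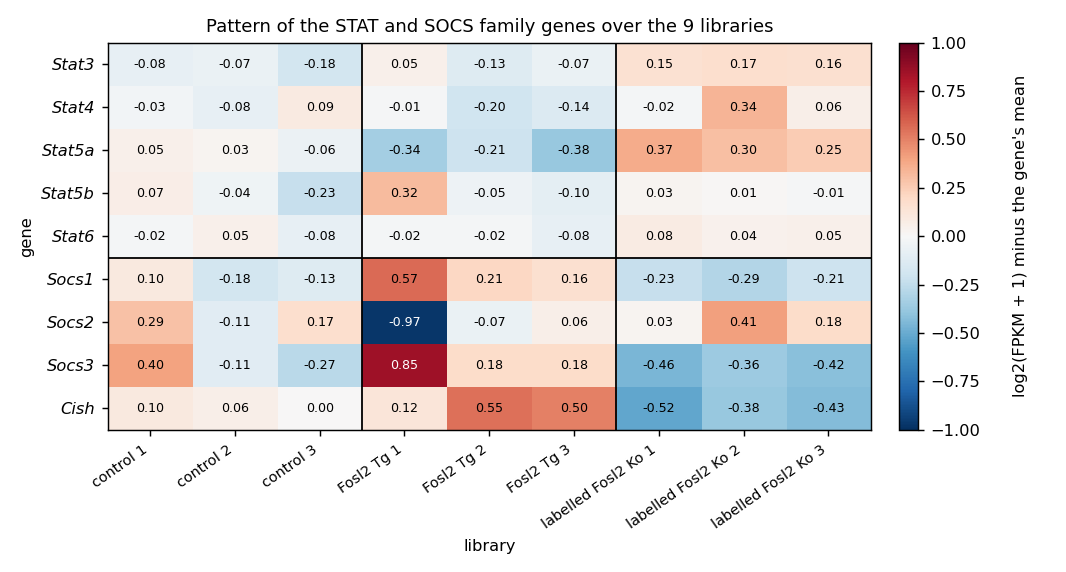
Log2(FPKM + 1) of each gene (rows) in each library (columns) minus that gene's mean over the 9 libraries, red for above and blue for below it. Stat5a and Stat3 are above their means in all 3 libraries labelled Fosl2 Ko, where Socs1, Socs3 and Cish are below theirs, and Fosl2 Tg library 1 has the extreme values of Socs2 (-0.97) and Socs3 (0.85).

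Counted over the members, Fosl2 Tg against control had 1 gene higher (Socs1) and 1 lower (Stat5a) past the threshold, with 7 not past it. For comparison, 23.6% of the 10340 genes tested passed, of which 8.53% of all tested were higher and 15.1% lower. The groups of 3 of the 9 members did not overlap, against 45.2% of all genes. The libraries labelled Fosl2 Ko against control had 2 members higher (Stat3 and Stat5a) and 1 lower (Cish), where 4.46% of all genes passed, 2.14% higher and 2.32% lower, and 5 members had groups that did not overlap, against 32.8%. Fosl2 Tg against the Fosl2 Ko-labelled libraries had 3 members higher (Socs1, Socs3 and Cish) and 2 lower (Stat3 and Stat5a), where 38.1% of all genes passed, 17.4% higher and 20.7% lower, and 6 members had groups that did not overlap, against 60.4%. In Fosl2 Tg against control 1 member passed without control library 2 or 3 or any 1 Fosl2 Ko-labelled library. None (0) passed in the Fosl2 Ko-labelled libraries against control without any 1 control library or any 1 of those libraries. Between Fosl2 Tg and the Fosl2 Ko-labelled libraries 3 passed without any 1 of the latter. The median log2 difference of the 5 STAT genes was -0.03 in Fosl2 Tg (that of Stat6, whose sign turned with scaling) and 0.13 in the Fosl2 Ko-labelled libraries, both against control. That of the 4 SOCS genes was 0.36 and -0.30, beside -0.03 and -0.01 over all genes. The comparisons against control share their control libraries, so they are not independent, and a shift in control moves both differences the same way. The opposite signs of the medians are given side by side, were not tested and are not read as a result.

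The split of all called genes depended on scaling: in Fosl2 Tg against control 36.1% of called genes were higher, against 46.5% with median-of-ratios scaling, 45.5% with quantile normalization and 57.5% with small RNA genes left out and FPKM rescaled. In the Fosl2 Ko-labelled libraries against control it was 47.9%, and 62.2% with that rescaling.

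**Figure D3:**
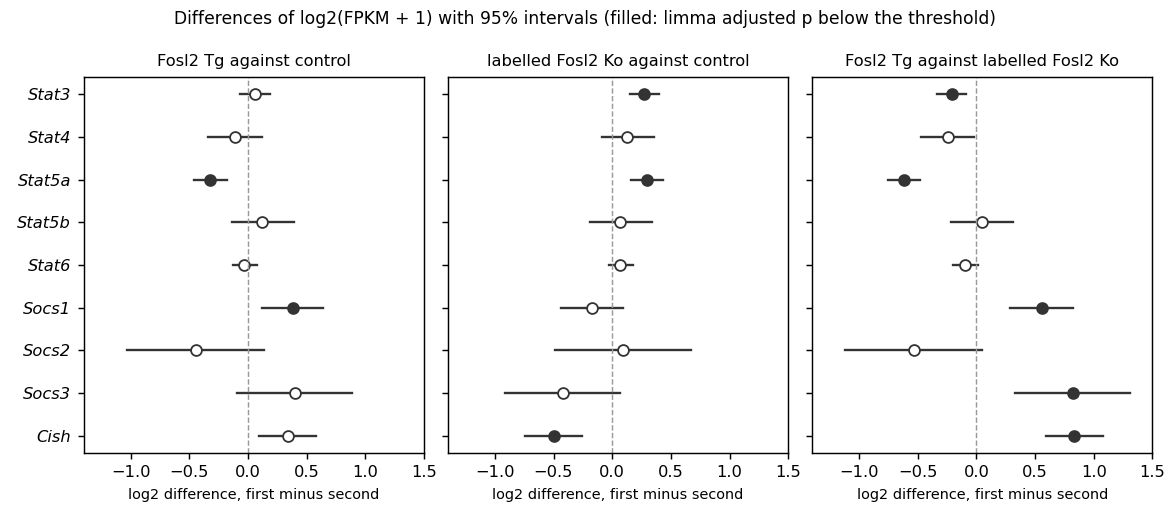
Difference of log2(FPKM + 1) (x axis, first group minus second) of each gene (y axis) in the 3 comparisons, with bars for 95% intervals and filled points for a limma adjusted p below 0.05. Stat5a has a filled point in each panel, left of 0 in both panels of Fosl2 Tg, and Cish has one in the panels with the Fosl2 Ko-labelled libraries, at -0.50 and 0.83.

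For each member called in at least 1 comparison, the tested genes of the most similar pattern were found by the root mean square difference of log2(FPKM + 1), centred on each gene's mean, over the 9 libraries, where a smaller value means more alike. Nearest to Stat3 were Slc16a6 (0.041) and Rufy3 (0.0442), and nearest to Stat5a were Grhl1 (0.0411) and Mtmr4 (0.0522). Klc4 (0.0484) and Lgals8 (0.0511) were nearest to Socs1, and Mtss1 (0.0776) and Xkrx (0.0826) to Socs3. Nearest to Cish were Hemk1 (0.0867), a protein methyltransferase gene 25.1 kb away from Cish on chromosome 9, and Ddt (0.0972). The distance to the median gene was 0.184 for Stat3, 0.267 for Stat5a, 0.3 for Socs1, 0.44 for Socs3 and 0.385 for Cish. The most similar other member was Stat6 for Stat3 (0.0945), Stat3 for Stat5a (0.201), Socs3 for Socs1 (0.18) and Socs1 for Cish (0.269). The mean FPKM of Hemk1 was 4.35 for control, 6.64 for Fosl2 Tg and 3.14 for the Fosl2 Ko-labelled libraries. Of the other nearest genes, only Slc16a6 (8511.3 kb from Stat3) and Mtmr4 (13243.1 kb from Stat5a) shared a chromosome with their member. These genes were picked as the closest of many over the same libraries, so close values were assured. Whether position played a part was not tested.

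The other genes of the pathway were taken from 9 lists with 84 symbols, of which 61 were tested. In Fosl2 Tg against control 14 were higher and 13 lower, and 27 of 61 passed beside 23.6% of all genes. Against control, 4 were higher and 4 lower in the Fosl2 Ko-labelled libraries, 8 of 61 beside 4.46% of all genes. With each library left out in turn, 13 of the 27 and 5 of the 8 passed every time. In Fosl2 Tg 13 passed without control library 2 and 14 without control library 3. The Fosl2 Ko-labelled libraries had 5 that passed without control library 2 or any 1 of those libraries, and 18 without Fosl2 Tg library 1. The median log2 difference was 0.02 and -0.06, beside -0.03 and -0.01 over all genes.

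Among the other STAT and SOCS genes, Stat2, Socs4, Socs5, Socs6 and Socs7 did not pass in any of the 3 comparisons. Stat2 was 3.72 ± 0.635 FPKM in control and 5.33 ± 1.38 in Fosl2 Tg (log2 difference 0.41, limma adjusted p = 0.08). The Fosl2 Tg libraries, in order, had 6.92, 4.56 and 4.51.

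Among the 4 Janus kinases, Tyk2 and Jak1 were higher than control in Fosl2 Tg, and none passed in the Fosl2 Ko-labelled libraries. Over all tested genes, 8.53% were higher in Fosl2 Tg, and 4.46% passed in the Fosl2 Ko-labelled libraries. Tyk2, which serves the interferon and IL-12 receptors, was 15.5 ± 1.27 FPKM in control and 19.8 ± 0.447 in Fosl2 Tg (log2 difference 0.34 ± 0.06, limma adjusted p = 0.00859). Jak1, shared by most of these receptors, was 78.1 ± 7.2 and 107 ± 21.5 (0.44 ± 0.13, adjusted p = 0.0399), a call lost without control library 2 or 3 or any 1 Fosl2 Ko-labelled library. In the Fosl2 Tg libraries, in order, Jak1 was 132, 93 and 97.2 FPKM and Tyk2 was 20.2, 19.4 and 19.8.

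Of the 19 receptor chains, 16 were tested, and in Fosl2 Tg 5 were higher and 2 lower than control. For comparison, 8.53% of all tested genes were higher there and 15.1% lower. The higher ones were Ifnar1, Ifnar2, Ifngr2, Il10ra and Il2rg, chains for interferons, IL-10 and the cytokines of the common gamma chain. Il10ra was 2.53 ± 0.675 FPKM in control and 5.30 ± 1.61 in Fosl2 Tg (0.82 ± 0.18, limma adjusted p = 0.0172), lost without control library 2 or 3, and Ifnar2 was 11 ± 0.86 and 14.2 ± 0.945 (0.35 ± 0.07, adjusted p = 0.0149), lost without control library 2. Il2rg was lost without any 1 library, Ifngr2 without 7 of the 9 in turn (adjusted p up to 0.138) and Ifnar1 without 6 (up to 0.143), so none of the 5 higher calls held without control library 2. In the Fosl2 Tg libraries, in order, Il10ra was 7.16, 4.39 and 4.34 FPKM, with library 1 highest, and Ifnar2 was 13.2, 15 and 14.6, with library 1 lowest. The 2 lower chains were Il21r and Il2ra. Il21r, the receptor that activates STAT3 on IL-21, was 48.3, 49.3 and 47.4 in control, 41.3, 38.5 and 35.9 in Fosl2 Tg and 81.2, 73.6 and 74.6 in the Fosl2 Ko-labelled libraries. Its groups did not overlap, and it differed from control by -0.32 in Fosl2 Tg (adjusted p = 0.0106) and by 0.65 in the Fosl2 Ko-labelled libraries (adjusted p = 0.00117), each call holding with any 1 library left out. Il2ra, the high-affinity chain for IL-2, was 102, 96.3 and 94.3 in control and 57.6, 81.2 and 77.5 in Fosl2 Tg (-0.45 ± 0.12, adjusted p = 0.0292), lost without any 1 control library or any 1 Fosl2 Ko-labelled library. Il21r was the 1 chain of 16 that passed in the Fosl2 Ko-labelled libraries, where 4.46% of all tested genes passed.

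Of 16 cytokine ligands, 3 were tested, and Il2 and Lif were lower in Fosl2 Tg, where 15.1% of all tested genes were lower. Il2, the growth factor that activates STAT5, was 138, 172 and 169 FPKM in control, 48.3, 77.0 and 62.1 in Fosl2 Tg and 108, 113 and 117 in the Fosl2 Ko-labelled libraries. All Fosl2 Tg libraries lay below every other library, and Il2 fell by 1.36 ± 0.16 against control (limma adjusted p = 0.00145), a call that held with any 1 library left out. The difference of the Fosl2 Ko-labelled libraries from control was -0.49 ± 0.16 (adjusted p = 0.137). Lif differed from control by -0.42 in both groups (adjusted p = 0.0222 in Fosl2 Tg and 0.0557 in the Fosl2 Ko-labelled libraries). Both differences rest on the same control libraries, and the Fosl2 Tg call was lost without control library 2 or 3.

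Among 10 other negative regulators, the phosphatase gene Ptprc was higher in Fosl2 Tg (0.30 ± 0.06, limma adjusted p = 0.00972), and the phosphatase genes Ptpn11 (-0.35 ± 0.06, adjusted p = 0.0056) and Ptpn1 (-0.21 ± 0.05, adjusted p = 0.0287) were lower. Ptpn1 was lost without 8 of the 9 libraries in turn. None of the 10 passed in the Fosl2 Ko-labelled libraries, where 4.46% of all tested genes did. In Fosl2 Tg, 8.53% of all tested genes were higher and 15.1% lower.

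Of the 16 STAT5 target genes, 3 were higher and 7 lower in Fosl2 Tg than in control, with a median log2 difference of -0.15, where 8.53% of all tested genes were higher and 15.1% lower. The calls of Pim1, Bcl2, Gzmb, Foxp3, Bcl2l1 and Tnfrsf4 held with any 1 library left out, whereas those of the lower genes Lif, Myc, Il2ra and Ccnd3 were each lost without control library 2, among others. The higher ones were Pim1, a survival kinase gene, Bcl2, an inhibitor of apoptosis, and Gzmb, a granzyme gene of cytotoxic cells. Pim1 was 74.5, 78.7 and 70.8 FPKM in control, 129, 124 and 128 in Fosl2 Tg and 33.7, 42.5 and 41.2 in the Fosl2 Ko-labelled libraries, without overlap. It differed from control by 0.76 ± 0.09 (limma adjusted p = 0.00134) and by -0.92 ± 0.09 (adjusted p = 0.00109), and both calls held with any 1 library left out. Bcl2 rose by 0.62 ± 0.11 in Fosl2 Tg (adjusted p = 0.00679) and differed by -0.43 ± 0.11 in the Fosl2 Ko-labelled libraries (adjusted p = 0.0599). Of the lower genes in Fosl2 Tg, Foxp3, the regulator of regulatory T cells, fell by 1.35 ± 0.11 (adjusted p = 3.41e-04), Bcl2l1, another inhibitor of apoptosis, by 0.70 ± 0.11 (adjusted p = 0.00555) and Tnfrsf4, a costimulatory receptor gene, by 0.90 ± 0.16 (adjusted p = 0.00741). These members of a list named for STAT5 therefore moved in both directions. Foxp3 was low, at 2.55 ± 0.422 FPKM in control and 0.391 ± 0.164 in Fosl2 Tg, so log2(FPKM + 1) understates its change. In the Fosl2 Ko-labelled libraries, Foxp3 was higher (1.05, adjusted p = 0.00155), Pim1 and Lta were lower, and 13 of 16 did not pass. For comparison, 2.14% of all tested genes were higher in these libraries and 2.32% lower. Foxp3 and Pim1 held with any 1 library left out, but Lta was lost without control library 2 or any 1 Fosl2 Ko-labelled library (adjusted p up to 0.0634).

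Of 9 STAT3 target genes, 7 were tested, and 6 of them did not pass in Fosl2 Tg and 5 did not in the Fosl2 Ko-labelled libraries. Over all tested genes, 23.6% and 4.46% passed in these comparisons with control. Bcl3, a nuclear partner of NF-kB, was higher in Fosl2 Tg (8.69 ± 0.797 FPKM in control, 10.9 ± 0.542, log2 difference 0.30, limma adjusted p = 0.0165, lost without control library 2 or 3) and lower in the Fosl2 Ko-labelled libraries (5.96 ± 0.211, -0.47 ± 0.07, adjusted p = 0.00632). Of 7 STAT4 target genes 1 was tested, the protease gene Furin, which fell by 0.52 ± 0.08 in Fosl2 Tg (adjusted p = 0.00521). Of 6 STAT6 target genes 3 were tested, and 1 of them did not pass in Fosl2 Tg and 2 did not in the Fosl2 Ko-labelled libraries. The transcriptional repressor gene Gfi1 rose by 0.49 ± 0.07 in Fosl2 Tg (adjusted p = 0.00249), and Gata3, the regulator of Th2 cells, was higher in Fosl2 Tg (0.21 ± 0.07, adjusted p = 0.0486) and in the Fosl2 Ko-labelled libraries (0.37 ± 0.07, adjusted p = 0.0195). The Gata3 calls rest on the same control libraries and were lost without 7 and 5 of the 9 libraries.

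**Figure D4:**
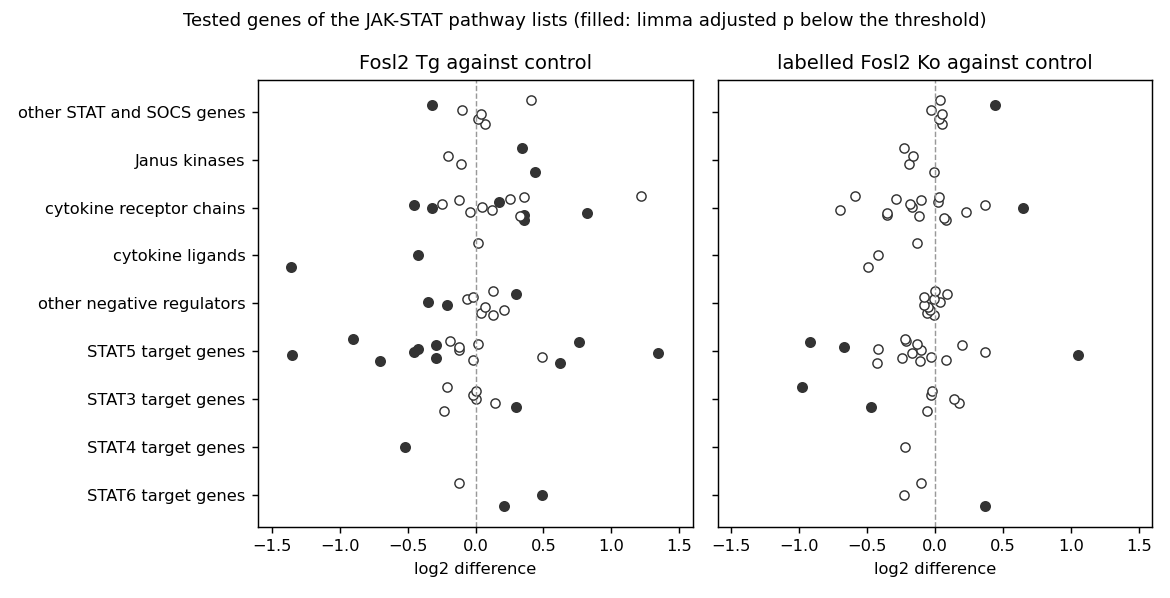
Log2 difference (x axis) of each tested gene of the 9 pathway lists (y axis, members not shown) in Fosl2 Tg (left) and the Fosl2 Ko-labelled libraries (right) against control, filled where the limma adjusted p is below 0.05, with genes of 2 lists drawn in each. In the left panel Il2 (-1.36) and Foxp3 (-1.35) have the lowest values, and the scale understates the change of Foxp3, a gene of low FPKM. There, 27 of the 61 genes are filled, against 8 in the right panel.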

How the data were processed

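RNA was measured in 9 libraries (3 groups of 3) of activated mouse CD4+ T cells. Per the file headers, the authors deposited one FPKM value per library for each gene, and a table of their own comparisons that holds p-values, q-values and log2 fold changes. The submitters' processing notes name TopHat, Cufflinks, Cuffdiff and mm10, without versions. The sources used here do not give whether counting used the strand. The authors' table has 4122 entries, all significant at least once in their comparisons, and holds 6 of the 9 members (not Stat4, Stat5b and Stat6). Its group values were normalized separately and no test was run on it.

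FPKM was used as deposited. Depth was estimated from the steps between low FPKM values of genes with a single transcript, and covers counting error only. Values were transformed to log2(FPKM + 1), which understates the change of low genes, and the 10340 genes that averaged 1 FPKM or more across all 9 libraries were tested. One limma 3.58.1 fit (R 4.3.3) of all 9 libraries, with a variance trend on the mean level and 6 residual degrees of freedom, gave log2 differences with SE and 95% intervals. P-values were adjusted over all tested genes by Benjamini-Hochberg with a threshold of 0.05, and the fit was tested on simulated data. Deposited start positions were shifted to count from 1. Promoters came from RefSeq (GRCm38.p6, 8 of 9 members matched by symbol).

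The members and lists were chosen with earlier results of these data known. Named were all members, Fosl2, up to 4 called genes per list and comparison against control with the smallest adjusted p, and the 2 genes of most similar pattern for each called member. Genes named to complete a count, such as Ifnar1 and the uncalled STAT and SOCS genes, fall outside that rule and were chosen after their values were seen. Alternatives were other pseudocounts, filters, scalings, weights and fits, the replicate block and leaving out each library. Some results that this rule selected are not reported here.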

Additional observations from a re-analysis of the deposited data

How the results depend on the processing

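Over the members' single differences, 204 of the results with 1 library left out and 265 of the others were unchanged in direction and side of the threshold. The rest were 32 and 6 that no longer passed, 1 and 13 that newly passed, and 6 and 7 that changed sign, and the cause was not tested. The sign changes were in differences not past the threshold. In Fosl2 Tg against control they were Stat6 (0.02 with median-of-ratios scaling, 0.07 with quantile normalization, 0.08 with small RNA genes left out, 0.01 without control library 2), Stat3 (-0.03), Stat5b (-0.02) and Socs2 (0.05) with array weights, and Stat5b (-0.01) without Fosl2 Tg library 1. In Fosl2 Tg against the Fosl2 Ko-labelled libraries, Stat5b was -0.06 with array weights and -0.08 without Fosl2 Tg library 1. In the Fosl2 Ko-labelled libraries against control, Stat5b was -0.01 without control library 3, and Socs2 was -0.02 without control library 2 and -0.01 without library 2 of that group. Over each library left out, these differences reached 0.20 (Stat5b) in Fosl2 Tg against control, 0.13 (Stat5b) in Fosl2 Tg against the Fosl2 Ko-labelled libraries, and 0.14 (Stat5b) and 0.18 (Socs2) in the latter against control. For Fosl2 Tg against control, the members called were 1 without the filter on low values. With only the compared groups in the fit, 861 genes, 1 member and 12 pathway genes were called, and with array weights 5991 genes and 5 members. For the Fosl2 Ko-labelled libraries against control, 289 genes were called with a mean FPKM of at least 5, 888 genes and 15 pathway genes with only the compared groups in the fit, and 5313 genes, 6 members and 43 pathway genes with array weights. Array weights gave 45 pathway genes for Fosl2 Tg against the Fosl2 Ko-labelled libraries. With 1 library left out, the genes called numbered 879 to 2529 in Fosl2 Tg against control (2440 with all), 176 to 1233 in the Fosl2 Ko-labelled libraries against control (461) and 2170 to 4100 in Fosl2 Tg against these (3943). The members called were 1 to 2, 0 to 3 and 3 to 5, and the pathway genes 13 to 24, 5 to 18 and 20 to 32. The lowest counts of genes were without control library 2 in both comparisons against control and without Fosl2 Ko-labelled library 2 in the third, and the 1233 was without Fosl2 Tg library 1. Same-numbered libraries correlated at -0.13 to 0.10 in their deviations from the group means over all tested genes, none over 0.1. Such a correlation cannot exclude pairing in a part of the genes. The labels do not say whether equal numbers are pairs, so whether the libraries are paired was not settled. With the replicate block, 3259 genes were called in Fosl2 Tg against control, 491 in the Fosl2 Ko-labelled libraries against control and 4589 between these groups, and Cish passed in the first (adjusted p = 0.0391). Socs2 and Socs3 had the fewest estimated fragments among the members with an estimate, 156 to 917 per library. The part of depth in their spread was not tested.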
